A study of Mus musculus with 5 samples.

Results

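Distal intergenic peaks of NFATC2 (NFAT1) were examined in regenerating mouse myofibers. They were taken as all peaks that the authors placed in the class Distal Intergenic, after the peaks annotated to 10 genes were left out (Hif1a, Zfp979, Zfp987, Zfp990, Gm10801, Gm9075, 9230019H11Rik, 2210408I21Rik, Gm5614, and 2010315B03Rik). This gave 345 of the 726 peaks in the 4 deposited lists, and each library's peaks were kept apart. The rule used the class and the gene name and no measured value, but the left-out genes include loci already known to carry peaks in several of these libraries. They accounted for 20 distal intergenic peaks with scores of 51.7 to 1494, so values on recurrence and on high scores below are also given with them kept.

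NFATC2 is a transcription factor that calcineurin dephosphorylates when cytosolic calcium rises, after which it enters the nucleus and binds DNA at sites built around GGAAA. In muscle, calcineurin and NFAT signaling is known for its role in fiber-type gene expression and in myofiber growth. Distal intergenic sites lie outside genes and their promoters. Such sites can act as enhancers, and the nearest gene need not be the one they act on.

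ChIP-seq, in which chromatin bound to an antibody is sequenced, was performed with an anti-NFAT1 antibody (sc-32758X) on Dendra2+ myofibers of the tibialis anterior (TA) muscle. There were 2 libraries from wild-type and 2 from mfn2-/- animals, in which the gene of the mitochondrial fusion protein Mfn2 was deleted conditionally in muscle stem cells, and so in the nuclei they give to new fibers. Animals of both genotypes carried a mito-Dendra2 allele driven by Pax7-CreERT2, received tamoxifen (75 mg/kg daily for 5 days), and were injured 2 days later with BaCl2 (50 μL of a 1.2% solution). Fibers were collected at 14 dpi (days post injury). Pax7-CreERT2 recombines in muscle stem cells, so Dendra2 marks these cells and the fibers they fuse into, which can also hold older nuclei. Age, sex, and the number of animals behind each library were not given in the sources used here. If libraries shared animals or cultures, the spread between them would be technical only. A peak list cannot check the Mfn2 deletion, the fiber state, or the purity of the fibers.

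In the 2 wild-type lists there were 226 (replicate 1) and 212 (replicate 2) peaks of all classes. The mfn2-/- lists had 127 (replicate 1) and 161 (replicate 2). Each peak carries a score, which is −log10 of its p-value multiplied by 10, and every deposited score lies above 50, which stands for a p-value of 1e-05. Read counts were not part of the lists and depth is unknown. A longer list or a higher score can come from a more deeply sequenced library, and the part of depth in the differences between libraries was not tested. Positions are in mm10 as the lists give them.

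Few sequences could be placed beside these peaks, because no genome sequence was used here. One distal intergenic peak reached a promoter window of the RefSeq table (GRCm38.p6, whose coordinates are those of mm10), and it is shown because it sits at a gene start despite its class. It came from mfn2-/- replicate 1, was annotated to Nabp1, a single-stranded DNA-binding protein gene, and lay at chr1:51596715-51597290 with a score of 51.2. It covered 254 bases of the promoter of the long noncoding RNA gene Gm17767, which starts at position 51596718 on the minus strand. The covered stretch, chr1:51596715-51596968, is printed on the minus strand, with the single match to the NFAT core GGAAA or its reverse complement TTTCC in capitals.

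Gm17767 promoter: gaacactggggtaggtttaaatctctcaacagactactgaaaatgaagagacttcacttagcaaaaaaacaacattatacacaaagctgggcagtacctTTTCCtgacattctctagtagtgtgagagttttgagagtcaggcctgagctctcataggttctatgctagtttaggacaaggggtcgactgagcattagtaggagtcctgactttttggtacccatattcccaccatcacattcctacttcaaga

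GGAAA or TTTCC occurred in 55.9% of all 32851 promoters of the table over the same 254 bases, so that a match there is common.

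A microRNA gene was the annotated gene of 6 distal intergenic peaks, 4 in wild-type replicate 1 and 1 each in wild-type replicate 2 and mfn2-/- replicate 1. The mature RefSeq sequences are shown for the annotated microRNA with peaks in 2 libraries (miR-3964), the one with a peak among the 3 highest of its library (miR-5133), and the one nearest to its peak (miR-6390), and for Mir7210, whose hairpin lay nearest to any distal intergenic peak. Seeds (bases 2 to 8) are in capitals.

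mmu-miR-3964: aUAAGGUAgaaagcacuaaa
mmu-miR-5133: gCUGGAGCugcggcagcgcag
mmu-miR-6390: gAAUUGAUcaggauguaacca
mmu-miR-7210-5p: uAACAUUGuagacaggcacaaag
mmu-miR-7210-3p: uUAUAUGUaaguaacaauguggcu

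No seed was shared among these microRNAs. The peak at Mir7210 (mfn2-/- replicate 2, chr14:24089307-24090036, score 54.1) was 377 bp from the hairpin, although the authors' annotation names Gm6158. The Mir6390 peak was 3.07 kb from its hairpin and the Mir5133 peak 11.1 kb. The Mir3964 peaks were 412 kb from it in wild-type replicate 1 and 225 kb in mfn2-/- replicate 1, so the gene name joins peaks that lie far from it and from each other.

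The 2 genotypes differed in how many distal intergenic peaks their lists held. There were 118 in each wild-type library, 48 in mfn2-/- replicate 1, and 61 in mfn2-/- replicate 2. Both mfn2-/- libraries were below both wild-type libraries. The means were 118 ± 0 (SD, n = 2) and 54.5 ± 9.19 (SD, n = 2), a log2 difference of -1.12. The other peaks numbered 108 and 94 in wild-type and 79 and 100 in mfn2-/- libraries, so these groups overlapped. Of the difference between the genotypes in mean list length, 84.7% was in distal intergenic peaks under the rule. The rule raises this value, because 3, 3, 7, and 7 peaks of the left-out genes count among the other peaks of the 4 libraries. With these genes kept, the class numbered 121 and 121 in wild-type and 55 and 68 in mfn2-/- libraries. Intronic peaks numbered 72, 56, 38, and 57 in the same order, and promoter peaks, within 3 kb of a gene start, numbered 23, 25, 27, and 21.

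As a share of the list, distal intergenic peaks made up 52.2% (95% Wilson interval 45.7% to 58.6%) and 55.7% (48.9% to 62.2%) in wild-type replicates 1 and 2. They made up 37.8% (29.8% to 46.5%) and 37.9% (30.8% to 45.6%) in mfn2-/- replicates 1 and 2. These intervals cover counting error only. The means were 37.8% ± 0.066 in mfn2-/- and 53.9% ± 2.44 in wild-type libraries (SD, n = 2 each), a difference of -16.1 percentage points that was larger than the spread within either genotype. It was -12.5 points when the left-out genes were kept. An exact two-sided permutation test over all 6 assignments of libraries to genotypes gave p = 0.33 for the number and p = 0.33 for the share, which is the smallest p-value that 2 libraries against 2 allow, so the design cannot reach 0.05.

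**Figure D1:**
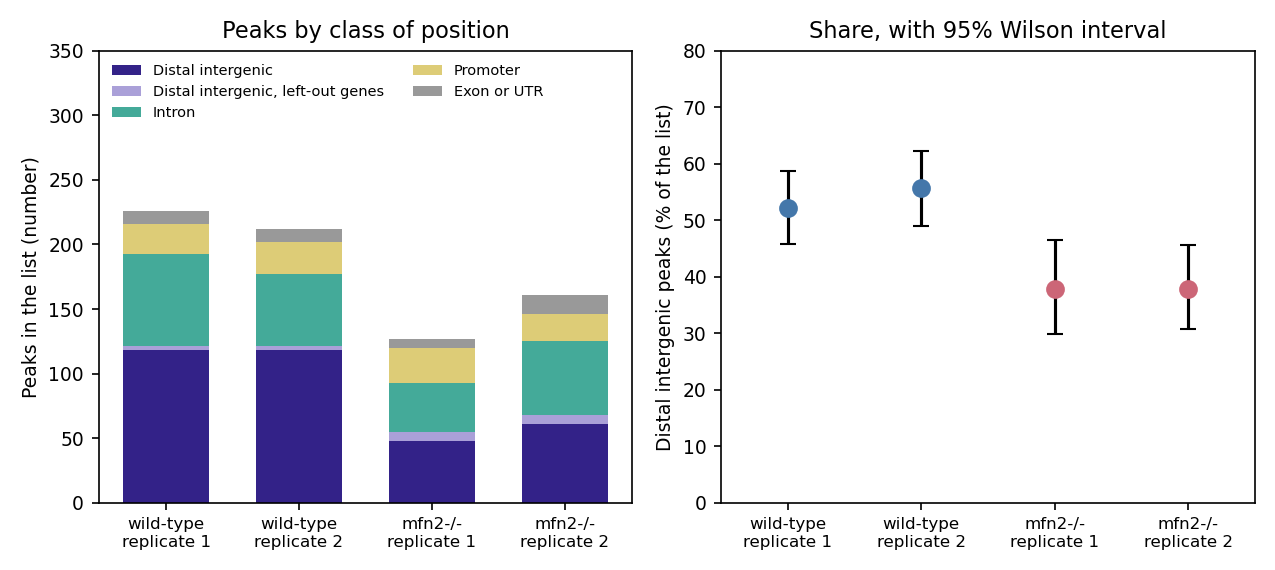
Left, the number of peaks in each library's list (vertical axis), stacked by the authors' class of position. Right, distal intergenic peaks as a percent of the list, with points for libraries (blue wild-type, red mfn2-/-) and bars for 95% Wilson intervals. Both wild-type libraries hold 118 distal intergenic peaks, and the mfn2-/- libraries hold 48 and 61.

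Most distal intergenic peaks scored just above the lower limit of the lists. In wild-type replicate 1 the scores ran from 50.0 to 72.6 with a median of 54.2, and in wild-type replicate 2 from 50.1 to 102 with a median of 53.3. In mfn2-/- replicate 1 they ran from 50.3 to 89.0 with a median of 56.8, and in mfn2-/- replicate 2 from 50.0 to 90.3 with a median of 53.9. The medians of the genotypes overlapped. The mfn2-/- mean of the medians was higher by 1.53 (exact permutation p = 0.67), and by 0.092 without mfn2-/- replicate 1. With the left-out genes kept, the medians were 54.4 and 53.4 in wild-type and 57.9 and 54.6 in mfn2-/- libraries, which did not overlap, and the mean was higher by 2.40 (exact permutation p = 0.33, the smallest possible). In all, 277 of the 345 peaks (80.3%) scored below 60, and 8 scored above 75. The left-out genes hold most of the high scores of this class. Of the 41 peaks above 100 in the 4 lists, 1 was a distal intergenic peak under the rule, and 19 were with the left-out genes kept. Above 75 there were then 26, and the highest scored 532, 547, 1188, and 1494 in the 4 libraries. Peaks of the other classes reached 247, 876, 980.5, and 932. All other peaks of the same lists, in which the left-out genes are counted, had medians of 53.9, 56.1, 57.0, and 55.3. The median of distal intergenic peaks was 0.355 above that of the other peaks in wild-type replicate 1 and below it in the other 3 libraries, with a mean difference of -1.02 (exact sign flips over 4 libraries, two-sided, p = 0.375). Without wild-type replicate 2 it was -0.43, and without wild-type replicate 1 it was -1.48. For peaks at or above the median score of all lists it was -1.70 (exact sign flips p = 0.125, the smallest that 4 libraries allow). With the left-out genes counted as distal intergenic and peaks of every score used, the mean difference was -0.0088.

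**Figure D2:**
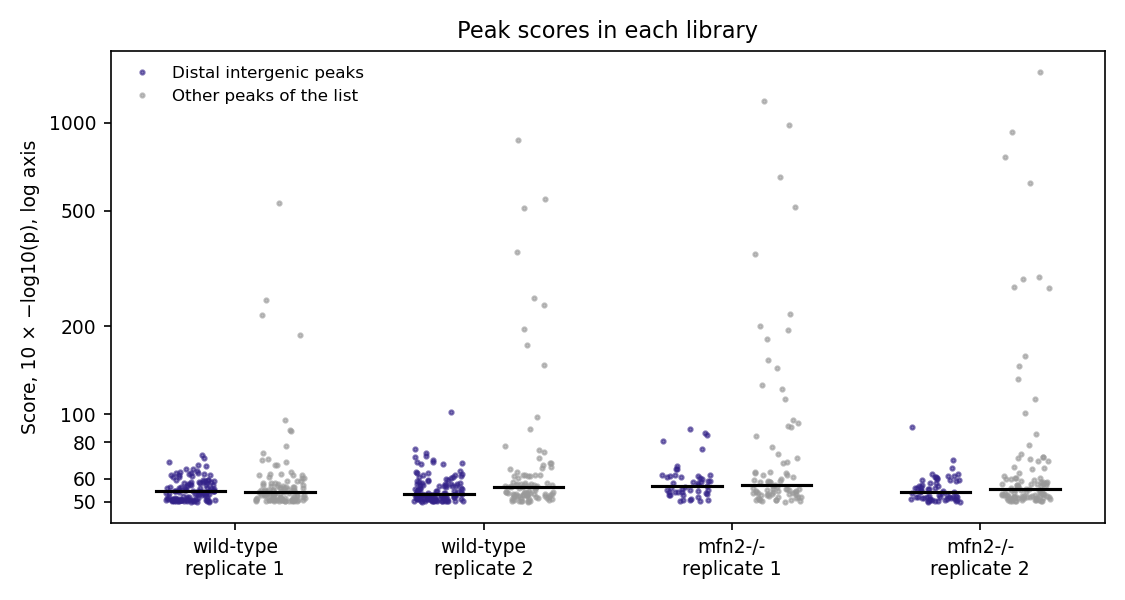
Score of each peak (vertical log axis, 10 times −log10 of the p-value) in the 4 libraries, with distal intergenic peaks in purple, other peaks in gray, and black lines for medians. Points are spread sideways at random for display. Distal intergenic peaks end at 102, and the gray peaks, which include those of the left-out genes, reach 1494, a Hif1a peak of the same class that the rule left out.

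Peak widths were near the sheared fragment size of about 500 bp. Median widths of distal intergenic peaks were 562.5 and 566 bp in wild-type and 578 and 604 bp in mfn2-/- libraries, and their full range was 280 to 2758 bp. The mfn2-/- mean was higher by 26.8 bp (exact permutation p = 0.33, the smallest this design gives). It was 13.8 bp without mfn2-/- replicate 2, and 10 bp for peaks at or above the median score of 54.7 (exact permutation p = 1). Against the other peaks of the same library the median width differed by 0.5, -15, -11, and -28 bp, with a mean of -13.4 bp (exact sign flips p = 0.25). This mean was -3.62 bp with the left-out genes kept, -8.5 bp without mfn2-/- replicate 2, and -29.4 bp for peaks at or above the median score (exact sign flips p = 0.125). Only 11 distal intergenic peaks were wider than 1 kb. Of these, 5 lay within chr8:20439703-20609241, and they were annotated to 2610005L07Rik (both wild-type libraries), Gm21092 (2 peaks in wild-type replicate 1), and Gm21119 (wild-type replicate 1). Their widths were 2177 to 2758 bp. Predicted genes can have near-identical copies, and whether reads at these places map to copies was not tested. The Zfp985 peak of mfn2-/- replicate 2 (1306 bp, score 55.7) was the distal intergenic peak closest to another peak of its own library, 582 bp from a left-out Zfp979 peak that scored 112.

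The 3 highest peaks of each library were at different places, apart from those that recur below. In wild-type replicate 1 they were annotated to Gm13667 (score 72.6), Gm26436 (70.5), and Mir5133 (68.6). In wild-type replicate 2 they were annotated to Dpy19l2 (102), Gm24774 (76.0), and Gm22011 (73.3). Dpy19l2 is known for its role in sperm head formation. In mfn2-/- replicate 1 the highest peak (89.0, chr1:190303123-190303644) was 85.8 kb from Prox1os, a noncoding neighbor of the homeobox gene Prox1, which was itself 132 kb away. It was followed by Gm25650 (86.3) and Ntf3 (85.0). The latter encodes neurotrophin-3, a growth factor for sensory and motor neurons, and its gene lay 165 kb from the peak, which was inside the long noncoding RNA gene Gm33276. In mfn2-/- replicate 2 they were Vmn1r-ps60 (90.3), a vomeronasal receptor pseudogene, Gm8730 (69.8), and Gm22521 (65.2). No protein of contraction, calcium handling, or mitochondria was encoded by the annotated gene of any of these 12 peaks.

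Few distal intergenic peaks were found again in another library. When peaks of the 4 lists were joined where they overlapped by at least 1 bp, the 345 peaks fell into 339 regions, of which 6 (1.77%) had a peak in 2 libraries and none had a peak in 3 or 4. Over all 680 regions of the lists, 4.56% had a peak in 2 or more libraries. Only the wild-type libraries, and both of them, shared 2 distal intergenic regions (0.59%, against 0.588% of all regions). Only the mfn2-/- libraries, and both of them, shared 1 (0.295%, against 1.47% of all regions). The remaining 3 were shared by 1 library of each genotype. With the left-out genes kept, 13 of 346 regions recurred (3.76%, against 4.56% of all regions). Of these, 5 were in both mfn2-/- libraries only (1.45%, against 1.47%) and 2 in both wild-type libraries only (0.578%, against 0.588%).

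The Dpy19l2 region (chr9:24541623-24542675) scored 61.0 in wild-type replicate 1 and 102 in wild-type replicate 2, where it was the highest distal intergenic peak. It lay 14.4 kb from the gene. The 2610005L07Rik region (chr8:20439703-20442460), near a transcribed pseudogene, scored 57.2 and 67.2 in wild-type replicates 1 and 2. These were the regions held by both wild-type libraries.

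The Vmn1r-ps60 region (chr7:12009961-12011090) scored 56.0 in mfn2-/- replicate 1 and 90.3 in mfn2-/- replicate 2, and it was the only distal intergenic region that was shared by the mfn2-/- libraries. It lay 4.28 kb from the pseudogene and 30.2 kb from the receptor gene Vmn1r77.

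The Pak3 region (chrX:143482580-143483400) scored 71.7 in wild-type replicate 2 and 58.5 in mfn2-/- replicate 1. It lay 35.0 kb from Pak3, which encodes a p21-activated kinase of the cytoskeleton. The Gm23665 region (chr15:47233293-47233606) scored 67.9 in wild-type replicate 2 and 59.2 in mfn2-/- replicate 2, and its nearest protein-coding gene was Csmd3, at 347 kb. The Gm7746 region (chrX:126692831-126694798) scored 54.5 in wild-type replicate 1 and 61.4 in mfn2-/- replicate 2. Each of these regions had a peak in both genotypes. Scores of the 12 peaks in recurring regions ran from 54.5 to 102 (median 61.2), and those of the 333 other distal intergenic peaks from 50.0 to 89.0 (median 54.0).

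**Figure D3:**
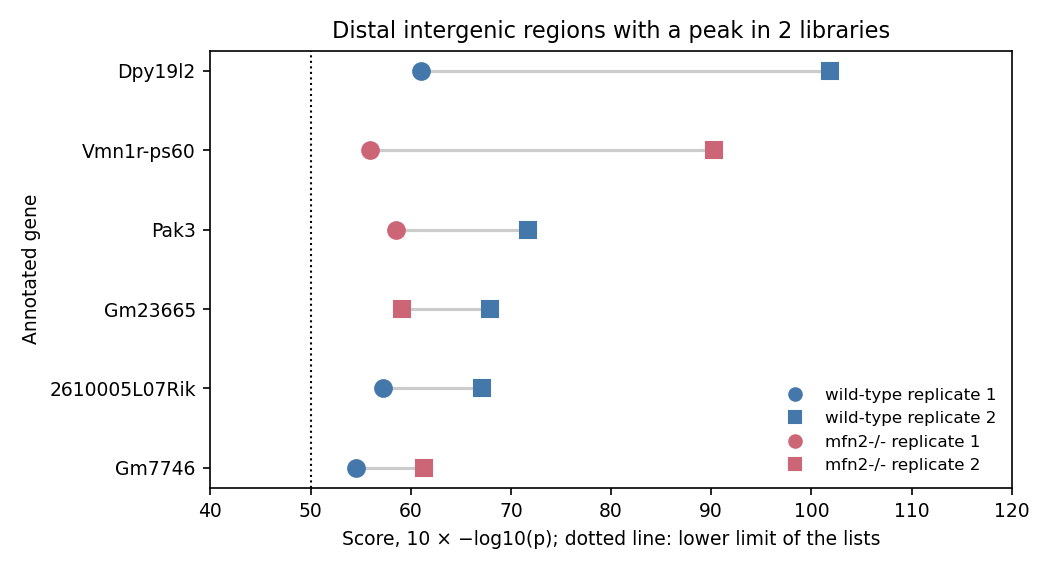
Scores (horizontal axis, 10 times −log10 of the p-value) of the 6 distal intergenic regions with a peak in 2 libraries, by annotated gene. Circles are replicate 1, squares replicate 2, blue wild-type, red mfn2-/-, and the gray line joins the libraries. In Dpy19l2 and Vmn1r-ps60, each held by 1 genotype, replicate 2 scores highest, at 102 and 90.3.

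Within each library, 2.54%, 3.39%, 4.17%, and 4.92% of distal intergenic peaks overlapped a peak of another library (wild-type replicates 1 and 2, then mfn2-/- replicates 1 and 2). The shares of other peaks were 11.1%, 14.9%, 27.8%, and 17.0%. The distal intergenic share was lower in 4 of 4 libraries, with a mean difference of -14.0 percentage points (exact sign flips p = 0.125, the smallest that 4 libraries allow). The rule itself lowers this value, because it counts recurring loci among the other peaks. Without mfn2-/- replicate 1 the mean difference was -6.89 percentage points. With the left-out genes kept, the mean difference was -2.61 percentage points (exact sign flips p = 0.375). Overlaps were few both within and across genotypes. Wild-type replicate 1 shared 2 of its 118 distal intergenic peaks with wild-type replicate 2 (1.69%, Wilson interval 0.466% to 5.97%) and 1 with mfn2-/- replicate 2. For mfn2-/- replicate 1, 1 of 48 was shared with the other mfn2-/- library (2.08%, 0.369% to 10.9%) and 1 with wild-type replicate 2.

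The annotated gene joined more peaks than position did. The 345 peaks were annotated to 324 genes, of which 16 (4.94%) had distal intergenic peaks in 2 libraries and none in 3 or 4. Of all 618 annotated genes, 63 (10.2%) had a peak of any class in 2 or more libraries, and 10 in 3 or more. The peaks overlapped at 6 of these genes and lay apart at the other 10. At 6 genes, distal intergenic peaks were in both wild-type libraries but in no mfn2-/- library (1.85% of the 324, where 2.1% of all annotated genes had any peak in that pattern). These were 2610005L07Rik, Cdh19, Csnka2ip, Dpy19l2, Gm4149, and Rpsa-ps10. Cdh19 encodes a cadherin of Schwann cells, and its peaks scored 54.4 in wild-type replicate 1 and 52.6 in wild-type replicate 2, lay 6.38 kb apart, and were over 133 kb from the gene. The Csnka2ip peaks (59.4 and 51.4) lay 96.2 kb apart, and the Rpsa-ps10 peaks (51.0 and 53.3) lay 353 kb apart.

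At 3 genes, distal intergenic peaks were in both mfn2-/- libraries but in no wild-type library (0.926%, where 1.78% of all annotated genes had any peak in that pattern), namely Atp2b1, Rpl21-ps5, and Vmn1r-ps60. Atp2b1 encodes a plasma membrane calcium pump. Its peaks scored 57.9 in mfn2-/- replicate 1, at 513 kb from the gene, and 61.3 in mfn2-/- replicate 2, at 144.5 kb, and they lay 368 kb apart. The Rpl21-ps5 peaks scored 64.7 and 53.9 and lay 189.8 kb apart. In the other 7 genes the libraries came from both genotypes, as for Mdfic, a MyoD family inhibitor domain gene, with peaks of 59.9 in wild-type replicate 2 and 58.0 in mfn2-/- replicate 2 that lay 22.5 kb apart. Within 1 library, no gene had more than 2 distal intergenic peaks. Those with 2 were Gm21092, Gm4149, and Slitrk5 in wild-type replicate 1, and Gm23625 and Gm5342 in wild-type replicate 2.

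Genes of muscle and of calcium signaling were the annotated gene of few peaks, distal intergenic or other. Of 98 skeletal muscle genes, 4 had a distal intergenic peak, each in 1 wild-type library. This split depends on how the list was drawn up. Trdn, counted under calcium signaling below, and Vgll2 and Ostn, which are muscle genes outside the list, had distal intergenic peaks in mfn2-/- libraries. The Vgll2 peak scored 54.3 in mfn2-/- replicate 2 at 3.86 kb from the gene, and the Ostn peak 51.7 in the same library at 79.9 kb. Ano5, a muscular dystrophy gene that is also outside the list, had one of 52.5 in wild-type replicate 2. With 4 peaks over 4 libraries, the counts are too small to be set against the spread between libraries. Myl1, a fast myosin light chain gene, had a peak of 54.1 in wild-type replicate 1 at 28.2 kb from the gene. Pax3, a transcription factor gene of muscle progenitors, had a peak of 54.4 in the same library at 82.1 kb. Lama2, which encodes a laminin chain of the muscle basement membrane, had a peak of 50.2 in wild-type replicate 2 at 158 kb, and Tbx15, a T-box transcription factor gene, had one of 51.4 there at 15.6 kb. All of these scores were close to the lower limit. The same genes' list had other peaks 2, 2, 2, and 1 times in the 4 libraries, and it took up 1.16% of distal intergenic and 1.84% of other peaks.

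Of 86 genes of calcium and NFAT signaling, 3 had a distal intergenic peak, and all 4 peaks were in mfn2-/- libraries. Besides Atp2b1, they were Dyrk2, a kinase that phosphorylates NFAT proteins, and Trdn, which encodes triadin of the calcium release complex. The Dyrk2 peak (chr10:118786021-118786626) scored 61.5 in mfn2-/- replicate 1 and lay 69.0 kb from the gene but 863 bp from the long noncoding RNA gene Gm33439. The Trdn peak scored 50.6 in the same library and lay 25.5 kb from its gene. This list took up 1.16% of distal intergenic and 1.31% of other peaks, and its other peaks numbered 1, 0, 2, and 2 in the 4 libraries. With 3 peaks in mfn2-/- replicate 1 and 1 in mfn2-/- replicate 2, these counts are too small to be set against the spread between libraries. As for the muscle list, the split can also depend on how the list was drawn up.

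None of the 57 listed hypoxia and HIF1 genes, the 50 listed mitochondrial genes, or the 141 listed developmental transcription factor genes had a distal intergenic peak. Other peaks at these lists numbered 10 (2.62% of other peaks), 0, and 4 (1.05%). For the first list this follows in part from the rule, since Hif1a is among the left-out genes. The lists are not complete, so each of these zeros, that of the hypoxia list included, depends on how they were drawn up. Pax3 and Tbx15 are developmental transcription factor genes that were listed under skeletal muscle. Some genes of mitochondrial proteins outside the list had peaks, and those named here are not a full set. Among them were Sqor (62.1, wild-type replicate 1), Slc25a31 (50.8, wild-type replicate 2), Mrpl32 (54.0, mfn2-/- replicate 1), and Ndufb4 (50.0, mfn2-/- replicate 2). Of 112 synaptic and neuronal adhesion genes, 7 had 9 distal intergenic peaks, with 6, 2, 0, and 1 in the 4 libraries. They made up 2.61% of distal intergenic and 7.35% of other peaks. The highest was at Lrrc4c (59.3), an adhesion protein of synapses, in wild-type replicate 1 at 78.3 kb from the gene.

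Predicted genes made up a large part of the annotated genes. Genes with a Gm number, which are mostly computed gene models of unknown function, were the annotated gene of 48.3%, 46.6%, 37.5%, and 49.2% of distal intergenic peaks in the 4 libraries. They were the annotated gene of 6.48%, 11.7%, 7.59%, and 8% of other peaks. Pseudogenes named as such accounted for 5.8% of all distal intergenic and 1.31% of other peaks, and olfactory or vomeronasal receptor genes for 2.61% and 0.525%. The receptor genes had only 9 distal intergenic peaks. In mfn2-/- replicate 2 they went the other way, with 0% of distal intergenic and 1% of other peaks. The left-out genes, several of which have Gm numbers, count among the other peaks here. Most other peaks lie inside a gene or near its start, and the distal intergenic class is placed away from both. How far these contrasts, and that of the synaptic genes above, follow from the class itself was not tested. Of the 324 gene symbols, 293 were found in the RefSeq gene table.

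The class itself is set by position relative to genes, so the distances are a description of its members. Over the 334 peaks on chromosomes with gene starts in the RefSeq promoter table, the median distance to the nearest start was 90.9 and 86.2 kb in wild-type and 62.7 and 74.9 kb in mfn2-/- libraries. Both mfn2-/- libraries had the shorter distances (a difference in log10 distance of -0.11, exact permutation p = 0.33, the smallest possible). With protein-coding gene starts alone the difference was -0.032, and with the higher-scoring peaks of the lists (the median of 54.7 or above) it was -0.026 (exact permutation p = 1). It was -0.20 when the left-out genes were kept. Without mfn2-/- replicate 1 it was -0.073, and by the nearest edge of a protein-coding gene it was -0.21. In each library 44.3% to 47.4% of the peaks were over 100 kb from a start, whereas 7 peaks in all were within 3 kb of one. The table lacks some genes, holding 79.9% of protein-coding genes, so these distances are upper limits. By the nearest edge of any RefSeq gene, the medians were 24.8 and 30.3 kb in wild-type and 14.4 and 15.5 kb in mfn2-/- libraries. Upstream of the nearest start were 45.0%, 46.5%, 58.3%, and 49.2% of the peaks.

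Some peaks were inside a RefSeq gene, despite their class. These were 11, 13, 8, and 9 peaks in the 4 libraries, or 9.32%, 11.02%, 16.7%, and 14.8% of the distal intergenic peaks. Of the 41, 22 were in long noncoding RNA genes, 12 in protein-coding genes, 5 in pseudogenes, and 2 in the immunoglobulin heavy chain locus. The protein-coding genes included Cacna1c, which encodes a voltage-gated calcium channel (mfn2-/- replicate 1, chr6:119157800-119158350, score 56.5, annotated to Dcp1b), and Sema3a, an axon guidance gene (mfn2-/- replicate 2, score 51.9). In wild-type libraries they included Glce, an enzyme of heparan sulfate synthesis (replicate 1, score 68.6, annotated to Mir5133), and Cdh12, a neuronal cadherin (replicate 2, score 57.5, annotated to Acot10). The authors' class and the RefSeq gene bounds thus differed at these places. With the peaks inside RefSeq genes removed, the log2 difference in number between the genotypes was -1.22.

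**Figure D4:**
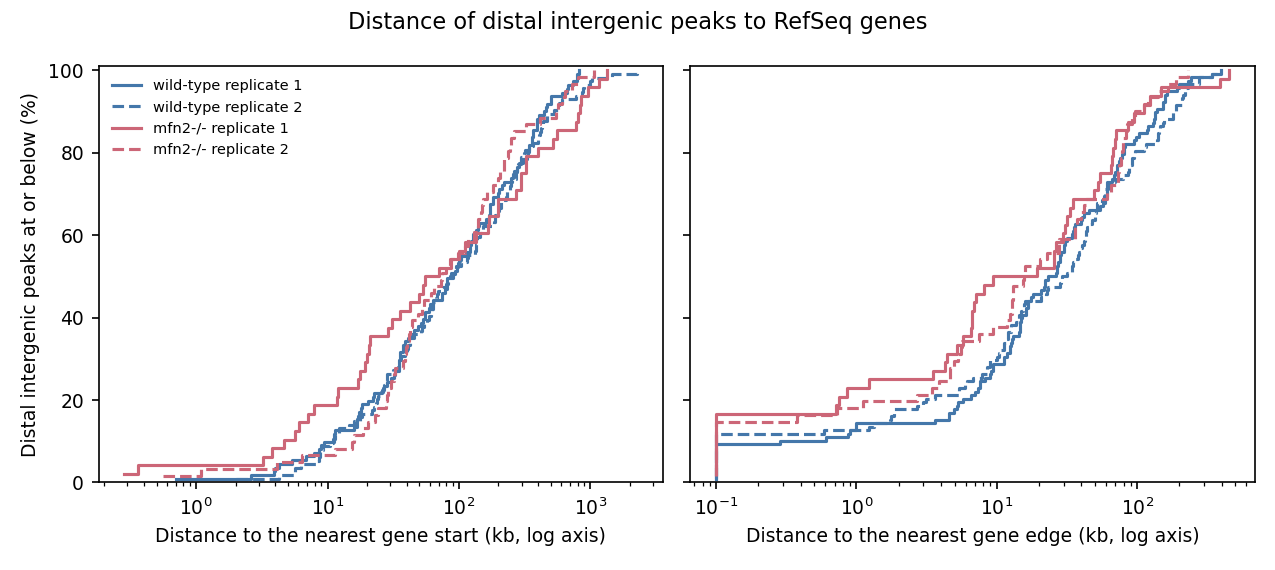
Cumulative percent of distal intergenic peaks (vertical axis) by distance in kb (horizontal log axis) to the nearest RefSeq gene start, left, and to the nearest edge of any RefSeq gene, right, with 1 line per library. Peaks inside a gene, at distance 0, are drawn at 0.1 kb. The medians to a start are 90.9 and 86.2 kb in wild-type and 62.7 and 74.9 kb in mfn2-/- libraries.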

How the data were processed

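NFATC2 ChIP-seq peaks of 4 libraries were used, 2 per genotype, and genotypes came from the sample labels. The wild-type input was not used. The authors called peaks in each library and deposited a score per peak, −log10 of its p-value multiplied by 10 and unscaled for depth. The submitters' processing notes name BWA 0.7.5, MACS, deepTools 3.5.0, and mm10. The caller's control, the annotation tool, and the position base were not given in the sources used here.

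Widths were end minus start plus 1. Genotypes were compared by exact permutation of library values (2 against 2), and classes of peaks by exact sign flips over 4 libraries (Python 3.11.15, SciPy 1.17.1). The code that joins overlapping peaks was checked on simulated peaks with known overlaps, and the recurrence counts were set against no chance expectation. Distances used RefSeq tables (GRCm38.p6). The 11 peaks on chromosome 18 have no distance to a start. The members and gene lists were chosen with earlier results of these data known. The genes named are those of every region in 2 or more libraries, the 3 highest peaks per library, genes with peaks in both libraries of 1 genotype only, genes with the most peaks in 1 library, and list members. Nabp1, Mdfic, Zfp985, Gm21119, Vgll2, Ostn, Ano5, Sqor, Slc25a31, Mrpl32, Ndufb4, and the genes around peaks inside genes or near microRNAs were chosen after their values were seen.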

Additional observations from a re-analysis of the deposited data

How the results depend on the processing

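No result changed its direction in any alternative, but no p-value here can pass 0.05, so this says little of stability. When lower-scoring peaks were dropped (under the median of 54.7), when peaks within 1 kb were merged, or with a 50% or 1 kb overlap rule, the counts of recurring regions stayed within 1.5 times of the values reported. With the left-out genes kept, 13 regions recurred in place of 6 (3.76% in place of 1.77%, against 4.56% of all regions). In both mfn2-/- libraries only there were 5 in place of 1 (1.45% in place of 0.295%, against 1.47%), because those genes hold recurring loci. Without 1 library at a time, 2 to 4 regions recurred, as fewer libraries were compared (3 without wild-type replicate 1, 2 without wild-type replicate 2, 3 without mfn2-/- replicate 2), the log2 difference in number ranged from -1.30 to -0.95, the difference in share from -17.8 to -14.4 points, the difference in median score from 0.092 to 2.97, the difference in median width from 13.8 to 39.8 bp, the difference in log10 distance to a start from -0.15 to -0.073, and the difference in recurrence from -15.3 to -6.89 points. The score difference thus rested on mfn2-/- replicate 1, and the recurrence difference (-14.0) was -6.89 without it.

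With a replicate block, the log2 difference in number was -1.12 and the share -16.1 points (exact sign flips over 2 pairs, p = 0.5, the smallest possible). A mean over pairs is the same for any pairing, crossed pairing included (-1.12), so it says nothing of how the results depend on pairing. The labels tie no number to a shared batch. Over the 5 regions found in all 4 lists, log2 score deviations from the genotype mean correlated at -0.63 between same-numbered libraries. None of these regions held a distal intergenic peak under the rule. So few regions cannot decide whether a number marks a shared batch. The crossed pairing, the distances to gene edges, and the removal of promoter peaks from the list (share -14.8 points) or of peaks inside RefSeq genes were chosen after seeing the data. Depth is unknown and limits every comparison of list lengths. The density of the NFAT core motifs in peaks was not run, as no genome sequence was used here.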
